A study of Mus musculus with 9 samples.

Results

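Ephrins, Eph receptors, semaphorins, plexins and neuropilins were followed across the whole series, as a set of cell-surface and secreted guidance genes. Members were taken by gene name, and the rule uses no measured value. They were every symbol of the Epha, Ephb, Efna and Efnb families, of semaphorin classes 3 to 7, of the plexins A to D and of the neuropilins. The set held 53 of the 52459 gene symbols in the transcript tables, with 8 ephrins, 14 Eph receptors, 20 semaphorins, 9 plexins and 2 neuropilins.

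RNA-Seq was performed on 9 libraries of NMuMG cells, an immortalized epithelial line from mouse mammary gland, with 3 libraries in each of 3 groups. Mock cells (libraries 203, 204 and 205) carried the empty pBICEP vector, EPR cells (206, 207 and 208) overexpressed the full-length transcript of the long noncoding RNA EPR (BC030870), and EPRSTOPE cells (209, 210 and 211) overexpressed a version in which the second codon of its short open reading frame was replaced by a stop codon, so that the RNA is made without its small peptide. In all groups the vector was driven by a CMV promoter, the cells were stable transfectant pools kept under G418, and no further treatment is given in the labels. The study's methods call the libraries of a group biological replicates, but neither they nor the labels say whether these came from separate transfectant pools or from cultures of 1 pool. The p-values therefore measure the spread between these libraries, which may not include that between pools.

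Ephrins are membrane-bound ligands of the Eph receptor tyrosine kinases. Ephrin-A proteins are held by a lipid anchor and bind mostly EphA receptors, while ephrin-B proteins span the membrane and bind mostly EphB receptors, and both sides of the contact can signal. Semaphorins are secreted (class 3) or membrane-bound (classes 4 to 7) ligands that act through plexins, and most class 3 semaphorins need a neuropilin as the ligand-binding co-receptor. First described in axon guidance, these proteins also set cell spacing, boundary formation and migration in epithelia and vessels, and EphA2, ephrin-A1, Sema3 ligands and plexin-B2 are known from mammary and other epithelia.

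Promoter sequences are shown for 5 members whose RNA levels carry the comparisons below, namely the 4 semaphorins with the greatest rises in EPR cells among those described library by library, and the plexin with the greatest fall. Each window runs from 250 bases before to 50 bases after the RefSeq start site on GRCm38.p6, 5′ to 3′ on the strand of the gene. The capitals mark the letters searched for, which were TGACTCA (bound by AP-1 factors), CACGTG (an E-box) and CAGGTG (the E-box form bound by Snail and Zeb repressors), each on both strands.
Sema6b promoter (chr17:56133803-56134102, minus strand): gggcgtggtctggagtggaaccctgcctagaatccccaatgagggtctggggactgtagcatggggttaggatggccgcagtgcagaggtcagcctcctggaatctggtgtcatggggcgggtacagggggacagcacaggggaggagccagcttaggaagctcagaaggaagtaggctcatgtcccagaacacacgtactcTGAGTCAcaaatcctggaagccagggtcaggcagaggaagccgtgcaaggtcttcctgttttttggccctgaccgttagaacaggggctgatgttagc
Sema3c promoter (chr5:17574566-17574865, plus strand): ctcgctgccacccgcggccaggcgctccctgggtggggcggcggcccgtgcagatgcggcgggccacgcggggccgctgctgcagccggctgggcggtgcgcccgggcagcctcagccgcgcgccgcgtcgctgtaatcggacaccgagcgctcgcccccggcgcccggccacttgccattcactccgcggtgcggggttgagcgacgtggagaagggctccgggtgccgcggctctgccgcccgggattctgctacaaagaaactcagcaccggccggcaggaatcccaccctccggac
Sema3e promoter (chr5:14025026-14025325, plus strand): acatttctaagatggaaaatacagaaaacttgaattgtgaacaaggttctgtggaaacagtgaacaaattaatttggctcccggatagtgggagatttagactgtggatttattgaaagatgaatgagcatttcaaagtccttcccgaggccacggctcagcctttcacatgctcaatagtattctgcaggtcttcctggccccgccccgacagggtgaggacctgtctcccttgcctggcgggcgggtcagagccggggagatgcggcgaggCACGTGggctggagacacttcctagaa
Sema4b promoter (chr7:80198338-80198637, plus strand): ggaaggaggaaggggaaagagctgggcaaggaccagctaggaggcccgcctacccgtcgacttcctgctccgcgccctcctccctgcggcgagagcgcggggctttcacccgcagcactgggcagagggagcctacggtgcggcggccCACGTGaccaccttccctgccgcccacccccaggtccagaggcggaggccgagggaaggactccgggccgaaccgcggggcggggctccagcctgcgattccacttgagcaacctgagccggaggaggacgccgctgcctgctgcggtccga
Plxnb3 promoter (chrX:73756853-73757152, plus strand): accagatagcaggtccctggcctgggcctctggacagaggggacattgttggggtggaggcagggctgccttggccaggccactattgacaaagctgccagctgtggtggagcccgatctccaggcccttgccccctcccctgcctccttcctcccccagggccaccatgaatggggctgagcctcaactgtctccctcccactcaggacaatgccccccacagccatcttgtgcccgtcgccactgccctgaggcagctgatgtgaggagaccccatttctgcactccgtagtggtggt
The Sema6b window holds the AP-1 letters, read as TGAGTCA, 48 bases before the start. The Sema4b window holds CACGTG 102 bases before the start, and the Sema3e window holds it just past the start. Windows were found for 34 of the 39 members that passed the filter on low counts. For 27 of the 34, the RefSeq start lay within 100 bases of that of the leading transcript, the coding one with the highest mean TPM. It was 147 bases away for Sema4b, shown above, and as far as 36990 bases away for Sema4d. Among these 34, TGACTCA was present in 1 (2.94%), CACGTG in 2 (5.88%) and CAGGTG in 4 (11.8%, Efnb2, Epha1, Sema4f and Sema6d). Of all 32851 RefSeq windows, 5.2%, 7.15% and 20.2% held these letters. The members' windows were richer in CpG than all RefSeq windows, with a median of 21.5 against 7 CpG sites and a median GC content of 64.5% against 52.7%. The 2 sets were chosen differently, however. Each member has 1 window, picked nearest its leading transcript, and passed the filter on low counts, while the RefSeq windows were not filtered for expression. The part of this choice in the motif shares and the CpG difference was not tested. Among the windows shown, Sema3c held 42 CpG sites, the most of all members, and Plxnb3 held 4. These matches are descriptions of sequence, and no binding was measured here.

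Library totals ran from 5972457 to 11876435 estimated counts, and 3 counts corresponded to 0.253 to 0.502 CPM (counts scaled to library size). EPR RNA was at 0 to 2 counts in the mock libraries, 214 to 271 in the EPR libraries and 28 to 39 in the EPRSTOPE libraries, with means of 24.9 CPM ± 1.87 (SD, n = 3) in EPR and 4.24 ± 0.477 in EPRSTOPE cells. The level of the transgene and the stop codon therefore cannot be told apart in a comparison of EPR with EPRSTOPE cells. Of 14 epithelial markers, 9 passed the filter, of which 8 rose in EPR cells while 5 rose and 1 fell in EPRSTOPE cells, and their summed level was 3705 to 4173 CPM in mock, 9537 to 10640 in EPR and 10710 to 11050 in EPRSTOPE libraries. In mock cells Krt8 and Krt18 were abundant, while Cdh1, the gene of E-cadherin, averaged 0.843 CPM and Epcam, Cldn3, Cldn4, Cldn7 and Esrp1 were at 0. Cdh1 averaged 556 CPM in EPR and 403 CPM in EPRSTOPE cells, a change that the sums, mostly Krt8 and Krt18, do not show. Of 14 mesenchymal markers, 8 passed the filter, of which 6 fell and 1 (Pdgfra, at 0 in mock) rose in EPR cells and 3 fell and 1 (Pdgfra) rose in EPRSTOPE cells, with sums of 4071 to 4234, 2228 to 2457 and 3979 to 4317 CPM and Twist1 at 0 throughout. Summed neuronal markers (7 genes, 3 tested) were at 26.4 to 29.9, 1.14 to 3.08 and 7.05 to 9.09 CPM, mostly Map2, with Snap25 at 0. Summed endothelial and Schwann cell markers stayed at or below 17.4 and 1.24 CPM, with Foxd3 at 0. The part of these shifts in the results below was not tested.

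Between 44 and 50 of the 53 members had at least 1 count in a library, and 39 had at least 1 CPM in at least 3 libraries and were tested. The 14 members below that level were Efna3, Epha3, Epha6, Epha8, Epha10, Ephb1, Ephb2, Plxnc1, Sema3d, Sema3g, Sema5a, Sema5b, Sema6a and Sema7a. No count was assigned to Epha3 or Epha6 in any library, and their mRNA was not detectable at this depth. Each difference was put to edgeR's quasi-likelihood test. A call needed a log2 fold change beyond 0.5 together with a p-value, adjusted over the 15370 genes tested, of less than 0.01.

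Guidance genes moved in both directions in both overexpressing lines. Against mock, 12 of the 39 tested members were higher in EPR cells (15.2% of all genes tested were), and 10 were lower (12.9% of all genes). The 12 were Epha4, Ephb3, Ephb6, Plxnb2, Sema3b, Sema3c, Sema3e, Sema3f, Sema4a, Sema4b, Sema4d and Sema6b, and the 10 were Efna4, Efnb1, Efnb2, Epha7, Nrp1, Plxnb1, Plxnb3, Sema3a, Sema4f and Sema6d. In EPRSTOPE cells 13 members were higher than in mock (15.6% of all genes) and 8 were lower (12.4% of all genes). The 13 were Epha4, Ephb3, Ephb6, Nrp2, Plxna4, Plxnb2, Sema3b, Sema3c, Sema3e, Sema3f, Sema4b, Sema4d and Sema6b, and the 8 were Efnb1, Efnb2, Epha1, Epha7, Plxnb1, Plxnb3, Sema3a and Sema4f. Both comparisons use the same mock libraries. A log2 fold change beyond 1 was reached by 7 of the risers and 5 of the fallers in EPR cells (8.81% and 6.13% of all genes) and by 7 and 3 in EPRSTOPE cells (8.46% and 6.98%). Across the 3 groups together, 29 of the 39 members differed at an adjusted p under 0.01 (46.4% of all genes). The median log2 fold change of the tested members was -0.05 in EPR and 0.19 in EPRSTOPE cells, beside medians of -0.01 and -0.04 over all genes. In these bulk samples, fewer cells with a transcript and less of it per cell cannot be told apart. On counts rebuilt from TPM and transcript length, which weigh the transcripts of a gene differently, only 5 members were called higher in EPR cells, and calls were lost for 10 members in EPR and 6 in EPRSTOPE cells, which are named with their families below.

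**Figure D1:**
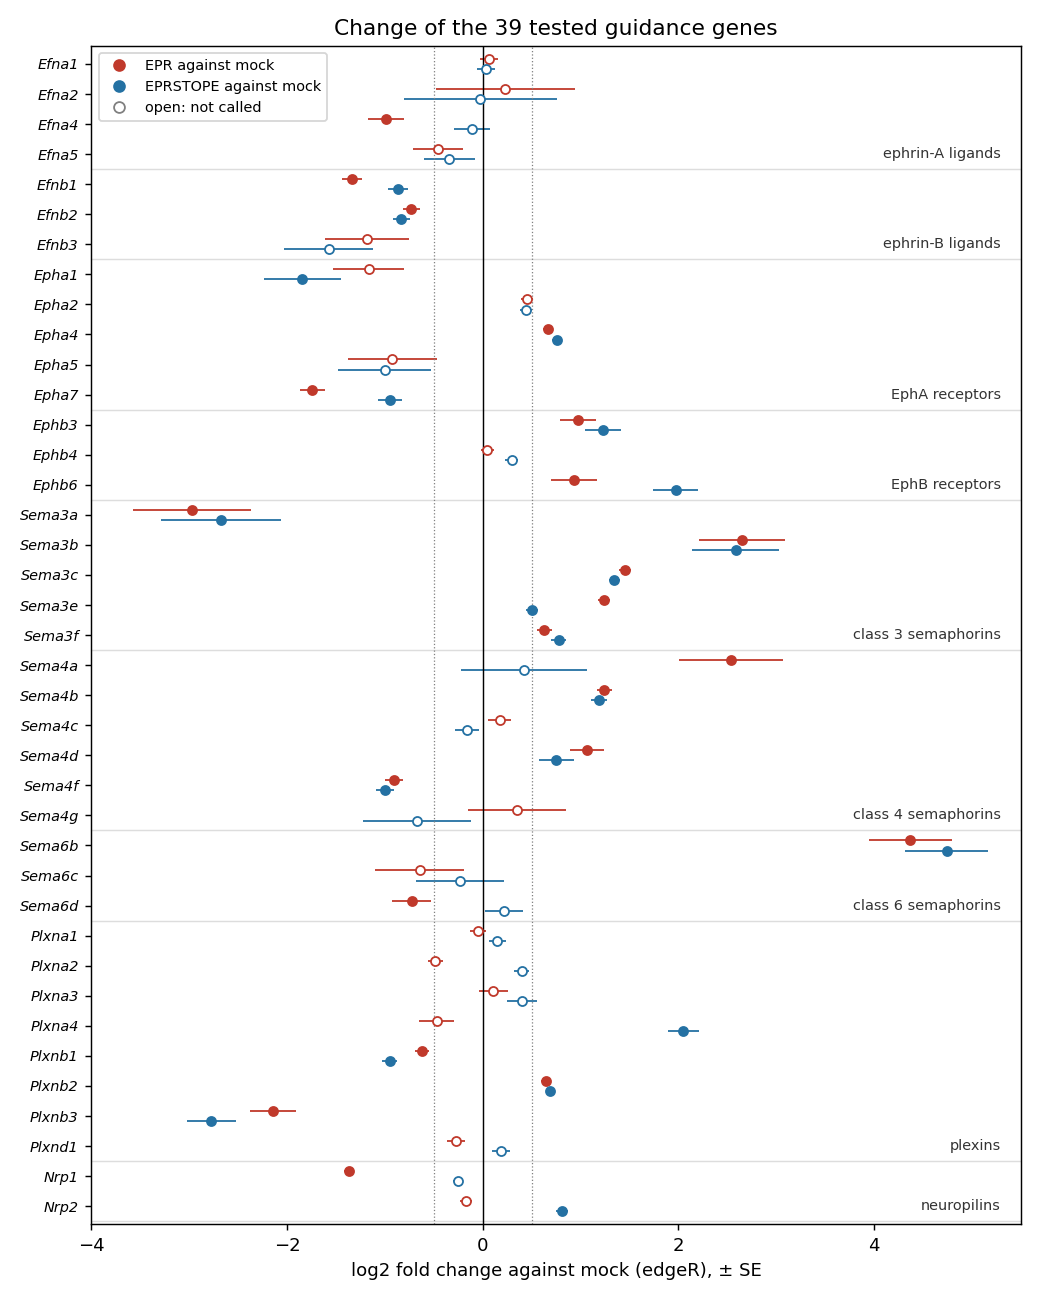
Log2 fold change against mock (x axis, ± SE from edgeR) of the 39 tested guidance genes, grouped by family, for EPR (red) and EPRSTOPE (blue) cells. Filled points were called and open points were not, and dotted lines mark 0.5 in either direction. Sema6b lies farthest to the right in both lines, at 4.37 and 4.75, and Plxna4 lies on different sides of 0, at -0.47 and 2.05.

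Levels of different genes can be compared only per transcript length, as TPM, which scales each transcript by its length and the library. In mock cells the most abundant members were Epha2 at 167 TPM ± 34.7 (SD, n = 3), Sema3c at 135 ± 11.5, Plxnb2 at 131 ± 6.6, Epha4 at 92.5 ± 17.1, Plxna1 at 88.4 ± 23.7 and Nrp1 at 81.8 ± 7.89. Neighbours in this order differed by less than their spread between Epha2 and Sema3c, between Sema3c and Plxnb2 and from Epha4 to Nrp1. Sema3c became the most abundant member in EPR and EPRSTOPE cells, at 261 TPM ± 22 and 256 ± 28.7. The summed TPM of the class 3 semaphorins was 182 ± 16.5 in mock, 329 ± 26.8 with EPR and 322 ± 37.5 with EPRSTOPE. The ephrin-B sum went the other way, at 75.9 ± 6.19, 35.3 ± 3.74 and 33.7 ± 8.01 TPM, and in neither class did mock libraries overlap the others. The neuropilin sum stood apart in EPR cells alone, at 97 ± 9.45, 47.9 ± 2.1 and 103 ± 17.3 TPM. The EphB receptor sum was 14.89 ± 0.5746 TPM in mock, 19.35 ± 3.305 with EPR and 28.15 ± 2.219 with EPRSTOPE. That of the class 6 semaphorins was 2.632 ± 0.5317, 3.674 ± 0.1581 and 5.268 ± 0.1774 TPM. In both of these classes no group overlapped another. The sums of the EphA receptors, plexins, ephrin-A ligands and class 4 semaphorins overlapped between groups.

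**Figure D2:**
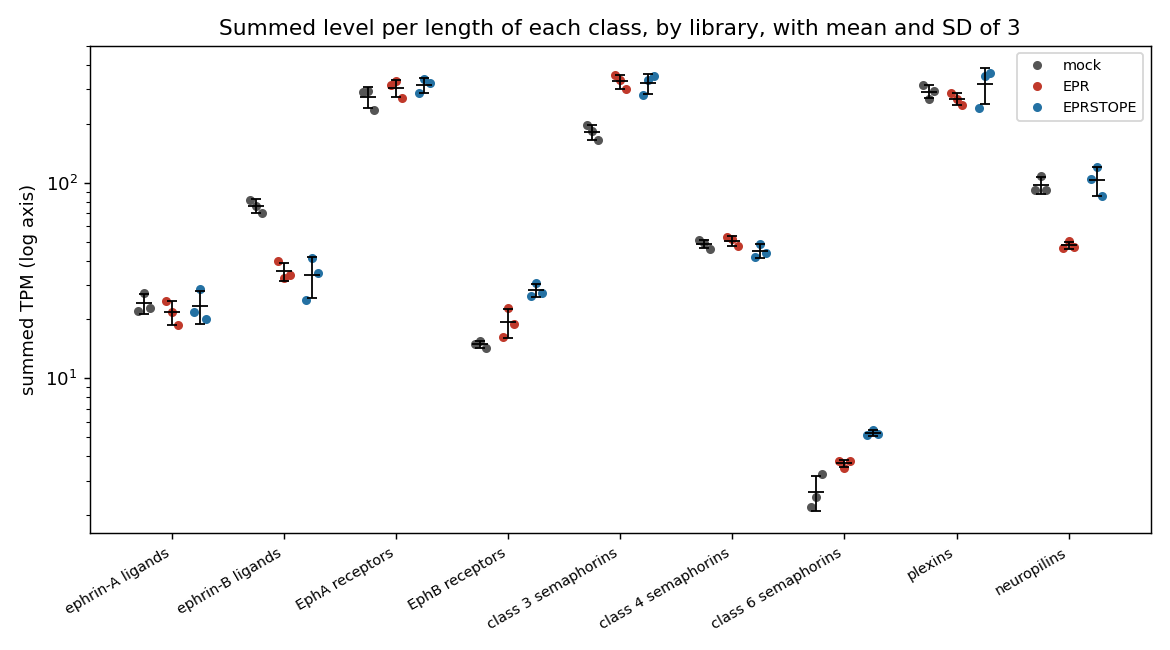
Summed TPM (log axis) of the members of each family, 1 point per library for mock (grey), EPR (red) and EPRSTOPE (blue) cells, with mean and SD of 3 libraries. Class 3 semaphorins lie higher and ephrin-B ligands lower in both overexpressing lines, and the neuropilins are lowest in EPR cells, at a mean of 47.9 TPM. EphB receptors and class 6 semaphorins are lowest in mock and highest in EPRSTOPE cells. Class 5 and class 7 semaphorins, with mean sums under 1 TPM, are not drawn.

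Among the ligands, 2 of 3 ephrin-B genes fell in both lines. Gene positions here and below are those of the Gencode annotation on GRCm38. Efnb1, which encodes the transmembrane ligand ephrin-B1 (ENSMUSG00000031217.8, chrX:99136130-99148991, plus strand), was at 52.4, 53.2 and 48.1 CPM in the mock libraries, 18.1, 21.3 and 21.7 in the EPR libraries and 27.4, 31.1 and 25.7 in the EPRSTOPE libraries. The 3 groups did not overlap, and every library of either line lay well below mock. The fall reached -1.33 ± 0.10 (SE) on the log2 scale in EPR cells (adjusted p = 5.3e-07) and -0.86 ± 0.10 in EPRSTOPE cells (adjusted p = 1.9e-05). Efnb2, whose product ephrin-B2 is the main ligand of EphB4, was the more abundant of the pair per length and fell from 172 CPM ± 9.56 to 104 ± 6.9 in EPR and 96.6 ± 10.2 in EPRSTOPE cells, log2 fold changes of -0.73 ± 0.08 and -0.83 ± 0.08. Efnb3, at 2.24 CPM in mock, was below 1 CPM on average in both lines and was not called (adjusted p = 0.038 and 0.013).

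Of the ephrin-A ligands, Efna4 alone was called. Its product is a lipid-anchored EphA ligand, and its mean was 7.7 CPM ± 0.856 in mock, 3.92 ± 0.541 with EPR and 7.2 ± 0.45 with EPRSTOPE. The log2 fold change in EPR cells was -0.99 ± 0.19 (adjusted p = 0.0009), and on counts rebuilt from TPM it was -0.85 (adjusted p = 0.021). Efna4 exons overlap those of 4731419I09Rik on the opposite strand, which averaged 1.27 CPM over all 9 libraries. The part of this overlap in the Efna4 counts was not tested. Efna1, the ligand best known for EphA2, ranged from 22.1 to 26.1 CPM over all 9 libraries, with the groups overlapping. Efna5 and Efna2 were not called in any comparison, at 5.61 to 10.7 and 0.326 to 2.17 CPM.

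The Eph receptors split by gene. Epha2 had the highest level per length (TPM) of the Eph receptors in every group, and its means were 535 CPM ± 20.9 in mock, 736 ± 48.8 with EPR and 728 ± 38.5 with EPRSTOPE. Both differences from mock had a small adjusted p (6e-05 and 8.1e-05) but stayed under the fold required for a call. Epha4, a receptor of both ephrin classes, rose from 287 ± 9.21 to 455 ± 3.41 and 486 ± 22.7 CPM, log2 fold changes of 0.67 ± 0.05 and 0.76 ± 0.05. Epha4 lost both calls on counts rebuilt from TPM (0.42 and 0.56, adjusted p = 0.066 and 0.021).

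Epha7 fell in both lines and most in EPR cells. It encodes an ephrin-A receptor known for a truncated form that acts in adhesion and repulsion (ENSMUSG00000028289.12, chr4:28813131-28967499, plus strand). Its levels were 49.5, 38.9 and 41.3 CPM in mock libraries, with 11.3, 13.4 and 14 CPM in the EPR set and 25.1, 21.2 and 21.1 CPM in the EPRSTOPE set. The groups did not overlap, and EPRSTOPE libraries lay between the others. The log2 fold changes were -1.74 ± 0.12 (adjusted p = 3e-07) and -0.95 ± 0.12 (adjusted p = 4.2e-05), the latter at -0.80 with an adjusted p of 0.015 on counts rebuilt from TPM. Epha1 fell in EPRSTOPE cells, from 3.55 CPM ± 0.795 to 0.945 ± 0.378, but its exons overlap those of Zyx on the opposite strand, which stood at 114 CPM. How strand was used in the counting is not given in the sources used here, so Epha1 is uncertain, and its call was also lost without mock library 205 (-1.74, adjusted p = 0.011). Epha5 averaged 1.83, 0.929 and 0.928 CPM in mock, EPR and EPRSTOPE cells and was not called.

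In the EphB family, the low-abundance receptors Ephb3 and Ephb6 rose in both lines, while Ephb4, the receptor of ephrin-B2, averaged 58.4 CPM in mock cells and 60.2 and 71.5 CPM in the EPR and EPRSTOPE lines and was not called. Ephb3, an EphB kinase known from cell sorting in the intestinal epithelium, averaged 4.28 CPM ± 0.441 in mock, 8.41 ± 0.494 with EPR and 9.97 ± 1.68 with EPRSTOPE, log2 fold changes of 0.97 ± 0.18 and 1.23 ± 0.18. In EPR cells its call was lost on counts rebuilt from TPM, where the value was 1.29 with an adjusted p of 0.016. Ephb6 is a member of the family whose kinase domain is inactive (ENSMUSG00000029869.7, chr6:41605482-41620509, plus strand). It was at 4.5, 3.48 and 6.19 CPM in the 3 mock libraries, 6.98, 9.47 and 11.1 with EPR and 21.5, 18.5 and 16.8 with EPRSTOPE. The 3 groups formed separate steps, with EPRSTOPE highest. The rise was 0.93 ± 0.23 in EPR (adjusted p = 0.0058) and 1.97 ± 0.23 in EPRSTOPE cells (adjusted p = 1.9e-05). The EPR call was lost without mock library 203 or 204 or EPR library 207 or 208 (0.75 to 0.91, adjusted p = 0.018 to 0.026), with limma-voom (0.91, adjusted p = 0.012), without TMM scaling (0.86, adjusted p = 0.01), with only the compared groups fitted (0.95, adjusted p = 0.01) and on counts rebuilt from TPM (1.15, adjusted p = 0.11).

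The class 3 semaphorins, the secreted ones, changed throughout. All 5 tested genes were called against mock in both lines, with 4 higher and Sema3a lower. Sema3c, a secreted ligand that acts through neuropilins and plexins and is known from epithelial branching and cardiac development (ENSMUSG00000028780.13, chr5:17574281-17730268, plus strand), was at 259, 264 and 251 CPM in mock libraries, with 705, 688 and 734 CPM in the EPR set and 700, 604 and 666 CPM in the EPRSTOPE set. Every library of both lines lay far above the highest mock library, and the lines overlapped each other. The log2 fold changes were 1.46 ± 0.06 (adjusted p = 2.6e-09) and 1.35 ± 0.06 (adjusted p = 4.3e-09). Its longest coding transcript, Sema3c-201, was assigned 20.3 TPM ± 5.05 in mock, 81.8 ± 4.95 with EPR and 76.7 ± 16.2 with EPRSTOPE, and made up 15%, 31.4% and 29.9% of the Sema3c TPM.

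Sema3e rose in both lines but more in EPR cells. Its product is unusual in the class because it binds plexin-D1 directly, without a neuropilin (ENSMUSG00000063531.7, chr5:14025276-14256689, plus strand). It was at 90.4, 84.5 and 84.2 CPM in the 3 mock libraries, 199, 209 and 204 with EPR and 132, 116 and 120 with EPRSTOPE. No group overlapped another, with EPRSTOPE in the middle. The rise was 1.24 ± 0.06 in EPR cells (adjusted p = 1.8e-08) and 0.51 ± 0.07 in EPRSTOPE cells (adjusted p = 4e-05). The EPRSTOPE value lies next to the fold limit of 0.5, and it fell short without mock library 204 (0.49), mock library 205 (0.49) or EPRSTOPE library 209 (0.45), at 0.38 without TMM scaling, and at 0.49 with either other filter on low counts.

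Sema3f, a neuropilin-2 ligand, rose from 37.7 CPM ± 2.73 to 58.4 ± 2.88 in EPR and 64.6 ± 3.52 in EPRSTOPE cells, log2 fold changes of 0.63 ± 0.08 and 0.78 ± 0.08. Its neighbour Sema3b, 72.3 kb away on chromosome 9, was near the detection limit in mock (14 counts in 3 libraries) and averaged 3.09 CPM ± 0.175 and 2.92 ± 0.578 in EPR and EPRSTOPE cells. Sema3a, the classic neuropilin-1 ligand that collapses growth cones, had 62 counts in the mock libraries and 8 in each line, with log2 fold changes of -2.97 ± 0.61 and -2.67 ± 0.61. The EPRSTOPE call of Sema3a was lost without mock library 204 or 205 or EPRSTOPE library 210 (-2.65 to -2.5, adjusted p = 0.011 to 0.013). All calls of Sema3a, Sema3b and Sema3f were lost on counts rebuilt from TPM. Their values there were -3.21, 2.19 and 0.33 in EPR (adjusted p = 0.024, 0.032 and 0.26) and -1.24, 1.71 and 0.61 in EPRSTOPE cells (adjusted p = 0.29, 0.09 and 0.043).

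Sema3d, Sema3a, Sema3e and Sema3c follow each other along chromosome 5, but they did not move as a block. Sema3d was not tested, Sema3a fell and Sema3e and Sema3c rose. The 10 other tested genes within this region or 1 Mb of it had median log2 fold changes of 0.22 in EPR and -0.13 in EPRSTOPE cells. They spanned -0.91 to 1.43 and -1.02 to 0.93. The upper end in EPR cells was set by a gene whose centre lies within the span of Sema3e. The centres of the genes Gm43519 and Gm43523 both lie there, and their log2 fold changes were 1.35 and 1.43 in EPR cells. Only Gm43519 passed the adjusted p of edgeR's test (0.0014 against 0.034). Whether their counts are separate from those of Sema3e was not tested.

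**Figure D3:**
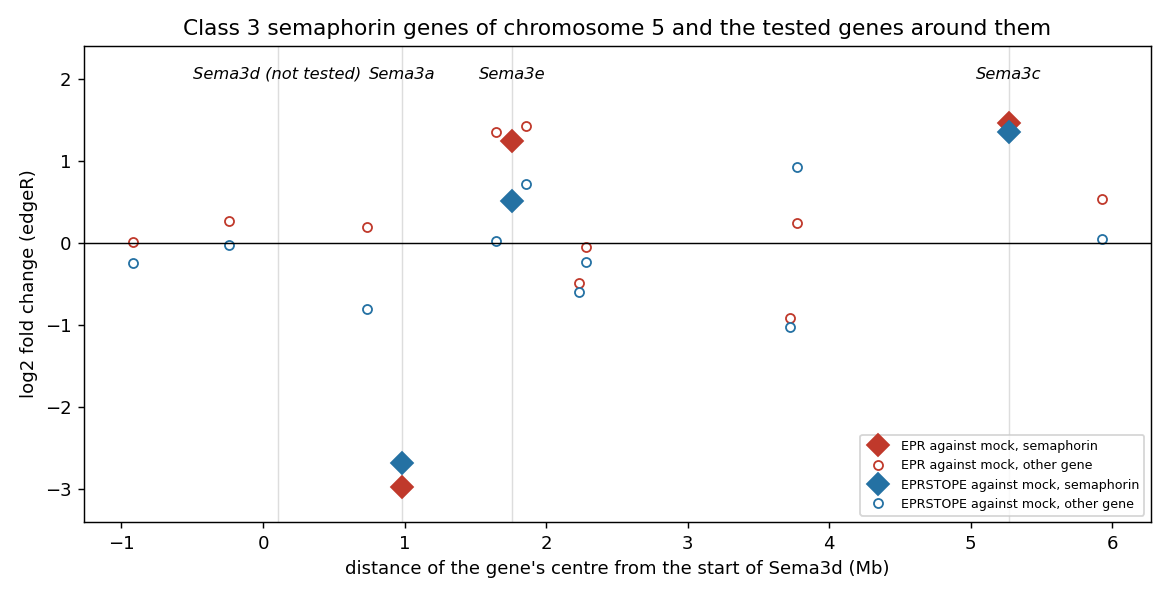
Log2 fold change against mock (y axis) of the class 3 semaphorin genes of chromosome 5 (diamonds) and the other tested genes (open circles), by distance from the start of Sema3d in Mb, for EPR (red) and EPRSTOPE (blue) cells. Sema3e and Sema3c lie above 0 and Sema3a below it, at -2.97 and -2.67, while the other 10 genes lie between -1.02 and 1.43.

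Class 4 semaphorins are membrane-bound ligands, mostly of the B-type plexins. Sema4b, a family member with a cytoplasmic tail that binds postsynaptic density proteins (ENSMUSG00000030539.13, chr7:80186841-80226527, plus strand), was at 42.9, 44 and 44.4 CPM in mock libraries, with 105, 105 and 101 CPM in the EPR set and 91, 95.5 and 113 CPM in the EPRSTOPE set. Both lines lay far above mock and overlapped each other. The log2 fold changes were 1.24 ± 0.08 (adjusted p = 9.8e-08) and 1.19 ± 0.08 (adjusted p = 1.3e-07). Sema4d, the plexin-B1 ligand also known as CD100 (ENSMUSG00000021451.15, chr13:51685529-51793747, minus strand), was at 6.37, 5.17 and 5.94 CPM in mock, 14.3, 11 and 11.1 in EPR and 9.32, 8.65 and 11.4 in EPRSTOPE libraries. No mock library overlapped either line, while the lines overlapped each other. Its log2 fold changes were 1.07 ± 0.18 (adjusted p = 0.00033) and 0.75 ± 0.18 (adjusted p = 0.0045).

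The Sema4d result did not hold under every setting, and the cause was not tested. On counts rebuilt from TPM it was 0.38 in EPR (adjusted p = 0.44) and turned to -0.33 in EPRSTOPE cells (adjusted p = 0.53), and the EPRSTOPE call was also lost without mock library 204 or 205 or EPRSTOPE library 211 (0.62 to 0.77, adjusted p = 0.014 to 0.025) and without TMM scaling (0.63, adjusted p = 0.013). Sema4a, a membrane ligand best known from the immune system and retina, had 12 counts in mock, 76 with EPR and 13 with EPRSTOPE, and was higher in EPR than in mock cells by 2.54 ± 0.53 (adjusted p = 0.0018). That call was lost without mock library 204 (2.38, adjusted p = 0.011) and on counts rebuilt from TPM (1.57, adjusted p = 0.14). Sema4f fell in both lines, from 62.3 CPM ± 4.26 to 33.2 ± 3.34 in EPR and 31.1 ± 2.07 in EPRSTOPE cells, log2 fold changes of -0.908 ± 0.093 and -0.996 ± 0.094. Sema4c, a plexin-B2 ligand, overlapped between mock and EPRSTOPE libraries, at 16.1 to 24.4 CPM over all 9, and neither Sema4c nor Sema4g was called.

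Of class 6, Sema6b had the greatest rise of all members in both lines. It encodes a transmembrane ligand of the A-type plexins (ENSMUSG00000001227.11, chr17:56123085-56140343, minus strand). It was at 0, 0.317 and 0.651 CPM in the 3 mock libraries, 9.43, 8.84 and 6.26 with EPR and 12, 9.4 and 10.5 with EPRSTOPE. In mock cells it was at the detection limit, with 11 counts in 3 libraries, against 245 and 250 counts in the lines. The log2 fold changes were 4.37 ± 0.42 (adjusted p = 4e-06) and 4.75 ± 0.42 (adjusted p = 1.7e-06). Per length it stayed a minor semaphorin, at 1.82 TPM ± 0.447 in EPR cells. Sema6d, which signals through plexin-A1 in the heart, fell in EPR cells from 7.39 CPM ± 0.614 to 4.43 ± 1.09 and averaged 8.64 ± 0.121 in EPRSTOPE cells. The fall was -0.72 ± 0.20 with an adjusted p of 0.0099. It was lost without any single library but EPR library 206 (-0.79 to -0.58, adjusted p = 0.014 to 0.042), with DESeq2 (adjusted p = 0.016), with RLE scaling (adjusted p = 0.011), with no filter (adjusted p = 0.016), with only the compared groups fitted (adjusted p = 0.022) and on counts rebuilt from TPM (-0.54, adjusted p = 0.13). Sema6c was not called, and classes 5 and 7 did not pass the filter on low counts.

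On the receptor side, the plexins are transmembrane proteins that turn semaphorin binding into cytoskeletal change through small GTPases. Plxnb2, the most abundant plexin per length, rose from 686 CPM ± 12.9 to 1072 ± 31.6 in EPR and 1110 ± 39.9 in EPRSTOPE cells. Its log2 fold changes of 0.64 ± 0.05 and 0.69 ± 0.05 stand beside medians of 0.45 and 0.60 for the 20 nearest tested genes, and of 0.49 and 0.52 for the 525 tested genes of chromosome 15. Plxnb1, the receptor of Sema4d, fell from 65.1 CPM ± 2.83 to 42.3 ± 2.13 and 33.5 ± 2.22, log2 fold changes of -0.62 ± 0.07 and -0.95 ± 0.08, beside medians of -0.41 and -0.20 for its 20 nearest tested genes. In both lines, then, the ligand Sema4d was called higher and this receptor lower in the counts as deposited.

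Plxnb3 had the greatest fall among the plexins. Its product is a receptor of Sema5a (ENSMUSG00000031385.14, chrX:73757090-73772514, plus strand), a ligand that did not pass the filter on low counts. It was at 29.5, 28.6 and 24.4 CPM in mock libraries, with 7.59, 4.42 and 6.35 CPM in the EPR set and 2.2, 5.34 and 4.03 CPM in the EPRSTOPE set. The lines overlapped each other and both lay far below mock. The log2 fold changes were -2.14 ± 0.23 (adjusted p = 1e-05) and -2.77 ± 0.25 (adjusted p = 2e-06), beside medians of -0.20 and -0.15 for the 20 nearest tested genes.

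Plxna4 stood apart in EPRSTOPE cells. It encodes an A-type plexin that binds class 6 semaphorins and, with neuropilin-1, Sema3a (ENSMUSG00000029765.12, chr6:32144268-32588192, minus strand). It was at 8.85, 7.81 and 12.7 CPM in the 3 mock libraries, 7.77, 6.31 and 7.29 with EPR and 40, 39.3 and 44.4 with EPRSTOPE. Mock was above EPR in each library, with little distance between them, and every EPRSTOPE library was at least 39.3 CPM. The log2 fold change in EPRSTOPE cells was 2.05 ± 0.16 (adjusted p = 5.6e-07), and in EPR cells it was -0.47 ± 0.18 (adjusted p = 0.045, not called). Most of it was assigned to the longest coding transcript, Plxna4-201, at 0.548 TPM ± 0.126 in mock, 0.443 ± 0.0206 with EPR and 2.62 ± 0.294 with EPRSTOPE. These were 85.7%, 91.0% and 97.6% of the Plxna4 TPM. Plxna1, Plxna3 and Plxnd1 were not called against mock, with Plxna1 at 256, 248 and 284 CPM on average and Plxnd1, the Sema3e receptor, at 73.5, 60.8 and 83.6 CPM in mock, EPR and EPRSTOPE cells. Plxna1 differed more per length, at 88.4, 43.8 and 53.8 TPM, with SDs of 23.7, 8.73 and 24.4.

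The neuropilins, which bind class 3 semaphorins and VEGF, behaved differently in each line. Nrp1 (ENSMUSG00000025810.9, chr8:128358604-128503363, plus strand) was at 363, 355 and 351 CPM in mock libraries, with 133, 138 and 144 CPM in the EPR set and 297, 303 and 299 CPM in the EPRSTOPE set. EPR libraries lay far below all others, and EPRSTOPE libraries lay slightly below mock without overlap. On the log2 scale the EPR value was -1.37 ± 0.05 (adjusted p = 1.3e-09), and in EPRSTOPE cells it was -0.25 ± 0.05 (adjusted p = 0.0015), under the fold limit and at 0.03 on counts rebuilt from TPM. Nrp2, a receptor of Sema3f and Sema3c that was chosen for this account after its values were seen, was at 125, 118 and 115 CPM in the 3 mock libraries, 109, 98.2 and 110 with EPR and 207, 206 and 215 with EPRSTOPE. It rose in EPRSTOPE cells by 0.82 ± 0.06 (adjusted p = 4.7e-07), while in EPR cells its value was -0.17 ± 0.06 (adjusted p = 0.041) and 0.13 on counts rebuilt from TPM.

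**Figure D4:**
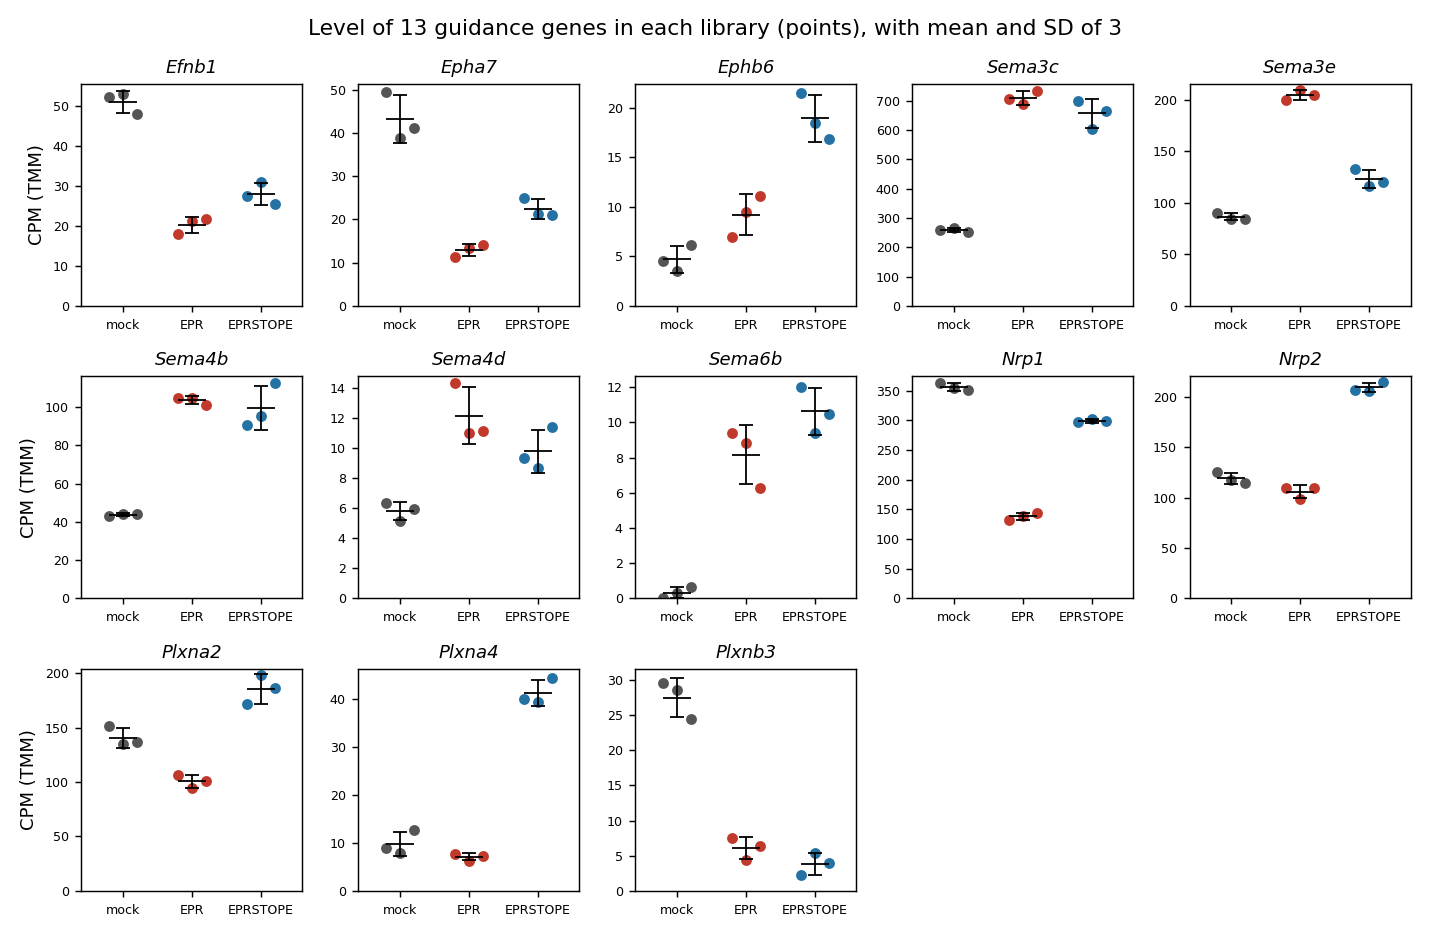
CPM after TMM scaling (y axes, each from 0) of 13 guidance genes in each library (points) for mock, EPR and EPRSTOPE cells, with mean and SD of 3 libraries. Nrp1 is lowest in EPR cells (133 to 144 CPM), Nrp2, Plxna2 and Plxna4 are highest in EPRSTOPE cells, and Sema3c, Sema4b and Sema6b are above mock in every library of both lines.

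A direct comparison of EPR with EPRSTOPE cells sets the RNA expressed with its peptide beside the RNA expressed without it. These lines also differ in transgene level, as given above, and were transfected separately. The parts of the peptide, the transgene level and the separate transfections cannot be told apart. Here 2 of the 39 tested members were higher in EPR cells (6.86% of all genes tested) and 8 were lower (6.35% of all genes). Beyond a log2 fold change of 1 there were 1 and 3 (3.75% and 2.76% of all genes). The median log2 fold change was -0.09 over the tested members and 0.01 over all genes. The receptors Epha7, Ephb6, Nrp1, Nrp2, Plxna2 and Plxna4 and the ligands Efna4 and Sema6d were the 8 that were lower, and the ligands Sema3e and Sema4a were the 2 that were higher. No receptor was called higher in EPR than in EPRSTOPE cells. With only 2 of 39 members called higher (5.13%, against 6.86% of all genes), this does not set the receptors apart.

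The largest of these differences was that of Plxna4, at -2.52 ± 0.17 (adjusted p = 4.6e-07). Nrp1 differed by -1.12 ± 0.05 (adjusted p = 3.5e-08) and Nrp2 by -0.99 ± 0.06 (adjusted p = 3.8e-07), so both class 3 co-receptors were at lower levels in EPR cells. Plxna2, an A-type plexin that binds class 3 and class 6 semaphorins and was chosen after its values were seen, was at 151, 135 and 137 CPM in mock libraries, with 107, 94.5 and 101 CPM in the EPR set and 172, 199 and 187 CPM in the EPRSTOPE set. The EPR libraries lay below mock and the EPRSTOPE libraries above it, with no overlap, and the direct difference was -0.88 ± 0.07 (adjusted p = 3.9e-06). Its differences from mock, -0.48 ± 0.07 and 0.40 ± 0.07, were each under the fold limit. The first of them passed that limit without mock library 204 or 205 or EPR library 206 (-0.53 to -0.50) and without TMM scaling (-0.57), and the second on counts rebuilt from TPM (0.56, adjusted p = 0.0091).

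Epha7 was lower in EPR than in EPRSTOPE cells by -0.79 ± 0.13 (adjusted p = 0.00064) and Ephb6 by -1.04 ± 0.21 (adjusted p = 0.0032). Sema3e was higher in EPR cells by 0.74 ± 0.06 (adjusted p = 4.5e-06). The other called differences rested on low counts and lost their calls when single libraries were left out. Efna4 (-0.88 ± 0.19, adjusted p = 0.0042) lost its call without EPR library 206 or 208 or any EPRSTOPE library (-0.93 to -0.82) and with only the compared groups fitted (-0.87, adjusted p = 0.011). Sema6d (-0.95 ± 0.20, adjusted p = 0.0037) lost its call without EPR library 207 or 208 or any EPRSTOPE library (-0.96 to -0.80). Sema4a (2.11 ± 0.53, adjusted p = 0.0098) lost its call without any library but EPRSTOPE library 209 (1.71 to 2.26) and with only the compared groups fitted (2.12, adjusted p = 0.017). Ephb6 lost its call without EPR library 206 or 207 or EPRSTOPE library 209 (-1.06 to -0.87). On counts rebuilt from TPM, 5 of the 10 direct calls were lost on the adjusted p. The values there were -0.89 for Efna4 (adjusted p = 0.036), -1.17 for Ephb6 (0.16), 0.72 for Sema3e (0.01), 1.46 for Sema4a (0.27) and -1.07 for Sema6d (0.019). Of these values, that of Sema4a was clearly smaller than in the deposited counts.

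Other members described library by library were not called between EPR and EPRSTOPE cells. The difference was 0.11 ± 0.06 for Sema3c, 0.05 ± 0.08 for Sema4b and -0.37 ± 0.28 for Sema6b, without a call (adjusted p = 0.19, 0.64 and 0.36). Efnb1 differed by -0.47 ± 0.10 (adjusted p = 0.0053), with no overlap between the libraries of the lines and just under the fold limit, and passed it without EPR library 208 (-0.5) or EPRSTOPE library 211 (-0.53). Plxnb3 differed by 0.63 ± 0.27, beyond the fold limit but with an adjusted p of 0.1, and Sema4d by 0.31 ± 0.17 (adjusted p = 0.2). For these genes the SE, and not the missed threshold, gives how large a difference remains possible.

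In other guidance systems, 12 of 22 netrin, Slit, Robo and related genes were tested. Against mock, 3 rose and 3 fell in EPR cells, and 1 rose and 6 fell in EPRSTOPE cells, where 15.2% and 12.9% of all genes rose and fell with EPR and 15.6% and 12.4% with EPRSTOPE. Set against EPRSTOPE, EPR cells had 4 of them at a called higher and 1 at a called lower level (6.86% and 6.35% of all genes). Slit2, a secreted repellent that signals through Robo receptors, was at 4.51, 3.69 and 2.85 CPM in the 3 mock libraries, 22.5, 21.1 and 17.6 with EPR and 0, 0.32 and 0.345 with EPRSTOPE. It rose by 2.5 ± 0.24 in EPR cells and fell by 3.78 ± 0.43 on the log2 scale in EPRSTOPE cells. Its receptor Robo1 fell in both lines, from 27.6 CPM ± 1.27 to 5.97 ± 0.777 in EPR cells. In the EPRSTOPE libraries Robo1 had 2 counts against 774 in mock, a ratio of 329 with a 95% counting interval of 90.7 to 2720. Robo2 had 299 counts in mock, 0 in EPR (at least 106-fold lower, taking 3 counts over the group) and 1 in EPRSTOPE libraries (a ratio of 254, interval 45.2 to 10100). These intervals cover counting error only. Ntn4, a netrin of basement membranes, rose from 11.3 CPM ± 1.46 to 34.3 ± 1.62 and 61.1 ± 3.54.

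Among 35 tested intracellular and membrane partners of the guidance receptors, 8 rose and 7 fell in EPR cells and 6 rose and 7 fell in EPRSTOPE cells against mock. Between the lines, 5 were called higher and 1 was called lower with EPR. The shares of all genes are those given for the other guidance systems, and the 6 of 35 that rose in EPRSTOPE cells lie near the 15.6% of all genes. Their median log2 fold changes were 0.17, 0.23 and 0.02. Chn1, which encodes the Rac GTPase-activating protein chimaerin acting after EphA4, fell from 40.8 CPM ± 3.19 to 3.2 ± 0.391 and 0.942 ± 0.548. Fyn, a Src family kinase that acts after plexins and Eph receptors, fell from 27.6 CPM ± 2.53 to 12.1 ± 1.21 and 11.4 ± 1.75. Rnd1, a small GTPase that binds plexins, rose from 19.7 CPM ± 0.439 to 74.3 ± 2.44 and 54.1 ± 5.84. Vav3, an exchange factor for small GTPases, rose from 7.82 CPM ± 1.02 to 18.2 ± 3.27 and 31.6 ± 2.76. Ngef, which encodes the EphA-coupled exchange factor ephexin-1, was at 0.464 CPM ± 0.455 in mock, 10.6 ± 0.427 with EPR and 1.39 ± 0.472 with EPRSTOPE, and rose in EPR cells by 4.33 ± 0.45 (adjusted p = 6.9e-06).

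The libraries of EPR and mock cells did not overlap for 32 of the 39 tested members (57.8% of all genes tested), and those of EPRSTOPE and mock cells for 29 of 39 (56.4%). Between EPR and EPRSTOPE cells 17 of 39 did not overlap (43.6%), close to the 43.0% of all genes. With 3 libraries against 3, an exact two-sided permutation test of a single gene cannot go below p = 0.1.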

How the data were processed

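Total RNA of NMuMG cells was sequenced from 9 libraries. The labels give a TruSeq Stranded Total RNA protocol with paired-end reads. The submitters' processing notes name bcl2fastq 2.0 and kallisto 0.43.1. The authors deposited, for each of 131100 mouse Gencode transcripts, a kallisto estimated count, not normalized, together with the TPM, scaled by length and library.

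Estimated counts were summed per gene symbol and rounded. The rule for members uses gene names only, but this gene set and the other lists were picked for study with earlier results of these data known. A minimum of 1 CPM in 3 or more libraries left 15370 genes, tested with edgeR 4.0.16 (R 4.3.3), using TMM normalization, a quasi-likelihood fit to all 9 libraries and Benjamini-Hochberg adjustment over all genes tested. Calls required a log2 fold change beyond 0.5 with an adjusted p of less than 0.01. CPM values are TMM-scaled means ± SD of 3 libraries, and the SE of a log2 fold change was derived from the F statistic. The step was tested on simulated data. The values of 1 marker list are not reported here. Values are given library by library for members called with a log2 fold change beyond 1 and at least 10 CPM in their highest group. Of the other guidance lists, the 2 called genes with the greatest rise and the 2 with the greatest fall in each line are named, among genes with at least 10 CPM in the higher group. Positions are those of the Gencode annotation of GRCm38, and promoters are RefSeq windows. Alternatives were DESeq2 1.42.0, limma 3.58.1 with voom, other scalings, filters, cut-offs and fits, counts rebuilt from TPM, and leaving out each library.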

Additional observations from a re-analysis of the deposited data

Results flagged for a closer look

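The following members had log2 fold changes of opposite sign against mock in the 2 overexpressing lines, together with a called difference between EPR and EPRSTOPE cells in edgeR's quasi-likelihood test. That difference was -2.52 for Plxna4, -0.99 for Nrp2, -0.88 for Plxna2 and -0.95 for Sema6d. The adjusted p in that test was 4.6e-07, 3.8e-07, 3.9e-06 and 0.0037. In all 4 genes every EPR library lay below every EPRSTOPE library. That adds little to a call made from the same libraries, and the libraries of these groups did not overlap for 43.0% of all genes tested. Against mock, Plxna4 and Nrp2 were called only in EPRSTOPE cells, Sema6d only in EPR cells, and Plxna2 in neither as deposited, though its EPRSTOPE value was called on counts rebuilt from TPM (0.56, adjusted p = 0.0091). The call of Sema6d was lost without EPR library 207 or 208 or any EPRSTOPE library (-0.96 to -0.80). The EPR value of Nrp2 against mock, -0.17, was 0.13 on counts rebuilt from TPM. EPR RNA itself was higher in EPR than in EPRSTOPE cells (24.9 against 4.24 CPM), and its part in these differences was not tested.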

How the results depend on the processing

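Of 1078 values of single members under the alternatives, over 64 results, 990 kept their direction and their side of the threshold, 77 kept the direction but lost the call, 7 gained a call and 4 changed sign. Sign changed on counts rebuilt from TPM for Nrp1 (0.025) and Sema4d (-0.33) in EPRSTOPE against mock and Nrp2 in EPR against mock (0.13), and without EPRSTOPE library 209 for Sema4b in EPR against EPRSTOPE (-0.005, with a range of -0.005 to 0.152 over the libraries left out). Counts rebuilt from TPM gave 5 members higher in EPR than in mock, 0 rises and 5 falls with EPR set against EPRSTOPE, and 16 differing among the 3 groups, against 29 in the deposited counts. A log2 fold change beyond 1 left 7 higher and 5 lower in EPR, 7 higher and 3 lower in EPRSTOPE, and 1 higher and 3 lower in EPR against EPRSTOPE. With at least 10 counts in every library, or with only the compared groups fitted, 1 member was higher in EPR than in EPRSTOPE. Leaving out 1 library gave 10 to 12 higher and 9 to 11 lower members in EPR, 11 to 13 and 6 to 8 in EPRSTOPE, and 1 to 2 and 6 to 8 in EPR against EPRSTOPE. For the genes of the other guidance systems and partners together, counts rebuilt from TPM gave 7 higher in EPR and 0 lower in EPR against EPRSTOPE. A log2 fold change beyond 1 gave 7 higher and 6 lower in EPR, 3 higher in EPRSTOPE and 0 lower in EPR against EPRSTOPE. A minimum of 10 counts gave 5 lower in EPR, 6 lower in EPRSTOPE and 3 higher in EPR against EPRSTOPE, and library size alone 4 higher in EPRSTOPE. Fewer genes are tested under the count minimum, and the cause of the other shifts was not tested. Without TMM the median over all genes in EPRSTOPE against mock moved from -0.04 to -0.16. No paired analysis was possible because each library has a number of its own that no other group shares. Depth limits the members under 1 CPM, for which 3 counts correspond to 0.253 to 0.502 CPM.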
